A study of Homo sapiens with 6 samples.

Results

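Peaks of the lncRNA CRLM1 that lie inside protein-coding exons were examined in ChIRP-seq lists from HCT116 cells, a line established from a human colorectal carcinoma. The method shears crosslinked chromatin and captures an RNA, with the chromatin DNA around it, through biotinylated DNA probes complementary to that RNA. The series held 6 libraries in 3 groups of 2 replicates, all from HCT116 cells fixed with formaldehyde. The sample titles and the study's ChIRP methods name no modification of these cells. CRLM1_IP was the pull-down with probes against CRLM1 (LINC01767), LacZ was the same pull-down with probes against a bacterial gene that the cells lack, and Input was chromatin taken without pull-down. All groups came from this cell line alone, and nothing in the labels says whether the replicates were separate cultures. Peaks had been called in 4 lists, each comparing CRLM1_IP of a replicate with Input or LacZ of the same replicate number. The 2 lists of a replicate share their CRLM1_IP library, so they are not independent of each other.

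A peak was taken as exonic when its midpoint lay in the coding sequence (CDS) or an untranslated region (UTR) of a protein-coding gene in GENCODE release 44 and was more than 2 kb from the transcription start site (TSS) of every protein-coding gene. Over chromosomes 1 to 22, the 4 lists held 906 such peaks among 36484. After joining overlapping calls, these were 807 distinct regions, of which 328 had the midpoint in CDS, 47 in a 5′ UTR and 432 in a 3′ UTR. The members nearest to the distance limit were a CDS peak of CALR at 2023 bases and a 3′ UTR peak of MRPL18 at 2040 bases from a TSS. Just outside it were a DAB2 peak at 1996 bases and an S100A4 peak at 1973 bases, both in 3′ UTRs.

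Exons are the parts of a gene that remain in its mature mRNA after splicing. The CDS is translated into protein, the 5′ UTR lies before it and the 3′ UTR, usually held in the last exon, lies between the stop codon and the end of the transcript. In genomic DNA, coding exons are short and separated by long introns, whereas 3′ UTRs are often unbroken over kilobases. A ChIRP peak is a stretch of DNA, so a peak centred on a short exon can also contain the introns on its sides.

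The label was checked against the gene models. With only the Ensembl canonical transcripts, 679 exonic regions remained in place of 807. In replicate 1, 139 of 183 exonic calls against Input and 298 of 359 against LacZ remained. In replicate 2, 312 of 356 against Input and 7 of 8 against LacZ did. The 906 calls had 809 different start and end positions. Of these 809 peaks, 360 contained at least 1 splice boundary, and 189 had under 50% of their length in the exons of the transcript that was used. Among the 328 CDS peaks, 276 contained a splice boundary and the median share of exonic bases was 50.1%. Among the 434 3′ UTR peaks, 50 contained a boundary and the median exonic share was 100%. Most of the 3′ UTR peaks were exonic along their whole length (345 of 434). For comparison, windows of the same median width were laid over the eligible sequence every 2000 bases. A boundary lay in 84.2% of CDS peaks (79.7 to 87.9%), near the 80.01% of CDS windows. It lay in 11.5% of 3′ UTR peaks (8.67 to 14.9%), which is above the 6.58% of 3′ UTR windows. The median exonic shares of the windows were near those of the peaks, at 49.5% and 100%. Of the 3′ UTR windows, 82.6% were wholly exonic.

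The sequence at the centre of the CDS peaks that led each list by score is given to show what lay there. Each line holds 30 bases of GRCh38 around the midpoint, 5′ to 3′ on the strand of the gene, with the codon that holds the midpoint in capitals. All bases shown are coding in the transcript that was used, except the end of the TOX3 line, which runs past the exon into the intron. That transcript was the canonical one only where the canonical CDS holds the midpoint. CDS in any transcript took precedence over UTR, so a line can be UTR in another transcript, and the codon follows the frame of the transcript used.
U2SURP, chr3:143022861-143022890, plus strand, exon 12: attatgtcttttGAAatgaagttaggttgg
CMAS, chr12:22062293-22062322, plus strand, exon 7: tcagaaagggccTGTtcaaagcagacgctg
GPX4, chr19:1106687-1106716, plus strand, exon 7: gtgcaccccgccggAGGaaggtcccatggc
GSTP1, chr11:67586522-67586551, plus strand, exon 7: tcctggcctcccctGAGtacgtgaacctcc
DHRS12, chr13:51790013-51790042, minus strand, exon 4: acttgaaaaaaacTTTgctgccaatactct
TRANK1, chr3:36828315-36828344, minus strand, exon 24: agttgaagactttGGTgagcttcggcctag
TOX3, chr16:52445985-52446014, minus strand, exon 5: cttggagaagaaCAAaagcaggtgagacaa

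The splice boundary nearest to the midpoint is shown for peaks of the 3 lists with more than 10 members, because the change from exon to intron inside a peak is what sets the CDS peaks apart from the 3′ UTR peaks. Capitals mark the exon and lower case the intron.
U2SURP, chr3:143022838-143022867, plus strand, 22 bases from the midpoint: atttctttcttgtagGAAAAATGATTATGT
GSTP1, chr11:67586374-67586403, plus strand, 147 bases from the midpoint: ccccctgccctgcagATCTCCTTCGCTGAC
DHRS12, chr13:51789996-51790025, minus strand, 17 bases from the midpoint: CTGCCAATACTCTGGgtaagtacaagaagt

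The number and share of exonic peaks were compared first, to see how far they depend on the replicate and the control. Against Input, 183 of 9251 peaks of replicate 1 were exonic, which is 1.98% (exact 95% confidence interval 1.70 to 2.28%). In replicate 2 against Input, 356 of 16638 peaks were exonic, or 2.14% (1.93 to 2.37%). Both shares lay under the 2.61% of the ungapped autosomal sequence that the same rule covers, at 0.758 and 0.820 of it. The list of replicate 1 against LacZ went the other way, with 359 of 10234 peaks exonic, 3.51% (3.16 to 3.88%), or 1.34 times the sequence share. In replicate 2 against LacZ only 361 peaks were called on these chromosomes and 8 of them were exonic, 2.22% (0.962 to 4.32%). The intervals are Clopper-Pearson intervals and cover counting error only.

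The split by part of the gene was similar in the lists. The CDS held 78 of 183, 140 of 359, 152 of 356 and 3 of 8 exonic peaks, with the lists in the order of replicate 1 (Input, then LacZ) and replicate 2 (Input, then LacZ), or 42.6%, 39.0%, 42.7% and 37.5%. In the same order, 3′ UTRs held 93, 198, 185 and 5, and 5′ UTRs held 12, 21, 19 and 0. For comparison, the eligible exonic sequence of 71.9 Mb was 41.6% CDS, 4.93% 5′ UTR and 53.5% 3′ UTR. The share of CDS was therefore close to that of the sequence in the 3 larger lists, with the sequence share inside each interval (35.4 to 50.1%, 33.9 to 44.3% and 37.5 to 48.02%). Of the 3 parts, CDS, 5′ UTR and 3′ UTR of replicate 1 against LacZ stood at 1.26, 1.60 and 1.39 times their sequence shares.

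The peaks of replicate 1 were then divided into those called against Input only, against both controls and against LacZ only, since the lists overlap. Exonic peaks made up 93 of 4611 Input-only peaks (2.02%, 1.63 to 2.46%) and 90 of 4640 peaks called against both controls (1.94%, 1.56 to 2.38%). Among the 5594 LacZ-only peaks, 269 were exonic (4.81%, 4.26 to 5.40%). The LacZ-only share was higher than that of Input-only peaks by 2.79 percentage points (Fisher's exact test, two-sided, adjusted p = 9.31e-14) and higher than that of peaks called against both controls by 2.87 points (adjusted p = 1.59e-14). Input-only peaks and peaks called against both controls did not differ past the threshold in the same exact test (adjusted p = 1). Peaks are not replicates of a condition, so these tests describe the lists of replicate 1, and the LacZ-only peaks come from a single pair of libraries.

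Replicate 2 gave no comparable LacZ-only group, as only 19 peaks were called there against LacZ alone and 1 of them was exonic. Its peaks called against both controls were exonic in 7 of 342 cases (2.05%, 0.827 to 4.17%) and its Input-only peaks in 349 of 16296 (2.14%, 1.93 to 2.38%), with adjusted p = 1 in Fisher's exact test. The exonic shares of the lists against Input, replicate 1 versus replicate 2, gave adjusted p = 1 in the same exact test, and so did those of the lists against LacZ. For the last pair the small list of replicate 2 leaves an interval that contains the share of replicate 1.

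**Figure D1:**
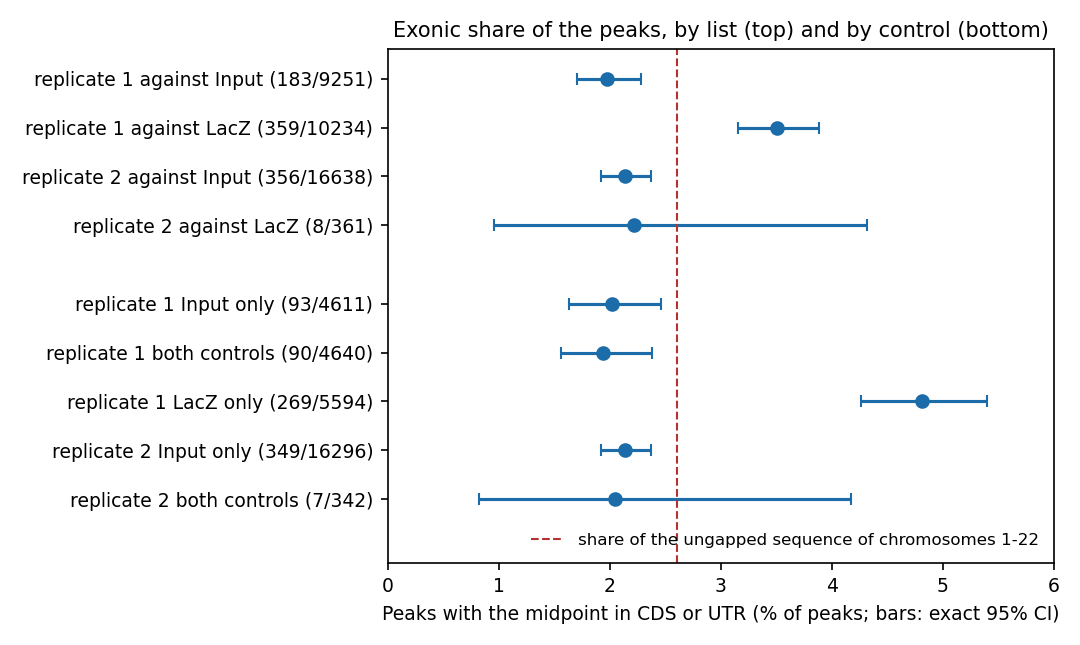
Share of peaks with the midpoint in CDS or UTR, in percent of the peaks of each list (upper 4 points) and of each group by control (lower 5 points), with exact 95% confidence intervals. The dashed line is the share of the ungapped sequence of chromosomes 1 to 22, 2.61%; replicate 1 against LacZ (3.51%) and its LacZ-only peaks (4.81%) are the points whose intervals lie above it.

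Calls against the other control and in the other replicate were counted for the exonic peaks beside all peaks of the list. In replicate 1, 90 of 183 exonic peaks called against Input were also called against LacZ, where 50.2% of all peaks of that list were. Seen from the other list, 90 of 359 exonic peaks called against LacZ were also called against Input, beside 45.3% of all its peaks. In replicate 2, the same counts were 7 of 356 exonic peaks against Input, beside 2.06% of all peaks, and 7 of 8 against LacZ, beside 94.7%. The exonic peaks of replicate 1 against LacZ were the members whose share called against the other control lay farthest from that of their whole list.

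Few exonic peaks were found in the other replicate, and no more than for all peaks. Against Input, 3 of 183 exonic peaks of replicate 1 overlapped a replicate 2 peak by at least 1 bp, where 1.66% of all peaks of that list did. Of the exonic peaks of replicate 2 against Input, 2 of 356 overlapped a replicate 1 peak, beside 0.902% of all peaks. Against LacZ, the counts were 0 of 359 in replicate 1 and 0 of 8 in replicate 2, beside 0.0586% and 1.66% of all peaks. The exact intervals of these counts of 0 reach up to 1.02% and 36.9%. Fisher's exact test, two-sided, of exonic against other peaks gave adjusted p = 1 in each of the 4 lists.

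With any control allowed, 6 exonic regions had a peak in both replicates, and in 2 of them the midpoint was exonic in both. CTC1, a component of a complex that maintains telomere ends, carried the stronger of these 2 in the 3′ UTR of its last exon. Its peak covered chr17:8226103-8227220 with a score of 113 in replicate 1 against LacZ and chr17:8226453-8227282 with a score of 94.4 in replicate 2 against Input. It was not in the other 2 lists. PDK1, a kinase that inhibits pyruvate dehydrogenase, carried the other in its 3′ UTR, at chr2:172600836-172601402 in replicate 1 and chr2:172600870-172601233 in replicate 2, both called against Input, with scores of 52.0 and 54.3. Both PDK1 scores lay close to the lowest score of the lists, 50, and the CTC1 scores did not.

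In the other 4 of these regions the peak was exonic in just 1 replicate, because the midpoints lay on different sides of an exon edge. CCDC39, needed for the assembly of motile cilia, had scores of 87.6 against Input and 97.8 against LacZ in replicate 1, and its replicate 2 peak against Input scored 68.8 with the midpoint outside the exon. ANKIB1 scored 52.1 and 52.0 in replicate 1 and 80.3 in replicate 2 against Input. For CACNA2D3, a calcium channel subunit, the exonic call was that of replicate 2 against Input (79.9), beside 51.3 and 51.6 in replicate 1 against Input and LacZ. ANXA5, a phospholipid-binding annexin, had an exonic call of 52.9 in replicate 2 against Input and a peak of 62.2 in replicate 1 against LacZ. No exonic region was in more than 2 of the lists as an exonic call, and 708 of the 807 were in 1 list.

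The overlap was also counted by gene. Exonic peaks fell in 184 genes in replicate 1 against Input, 359 against LacZ, 354 in replicate 2 against Input and 8 against LacZ, out of 17925 gene symbols with eligible exonic sequence. The lists against Input shared 10 genes, which is 5.43% of those of replicate 1 and 2.82% of those of replicate 2. Of all gene symbols, 1.98% had an exonic peak in the Input list of replicate 2 and 1.03% in that of replicate 1, and the difference from these shares was not tested. Among them were ANK2, BTBD8, CLCC1, CREBRF, MCM9, OAS1, PDK1, TRPM7 and TTC3. PDK1 was the gene among them with the peaks in the same place, and in the other 9 the peaks of the replicates lay in different regions of the gene.

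The score, the value the peak caller gave each peak, was used to order peaks within a list. Its lowest value is 50 in these lists, a higher score is a stronger call, and the scale is not stated, so scores are not set against each other between lists as sizes. For replicate 1, median scores of exonic and other peaks were 56.1 and 56.1 when Input was the control and 57.6 and 57.97 when it was LacZ. For replicate 2, they were 57.7 and 57.7 with Input and 54.3 and 56.0 with LacZ. A score of at least 60 was reached by 34.97%, 43.2%, 39.3% and 37.5% of the exonic peaks and by 34.3%, 41.3%, 40.5% and 27.5% of the others in the same order. Fisher's exact test of these shares gave adjusted p = 1 in each list.

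**Figure D2:**
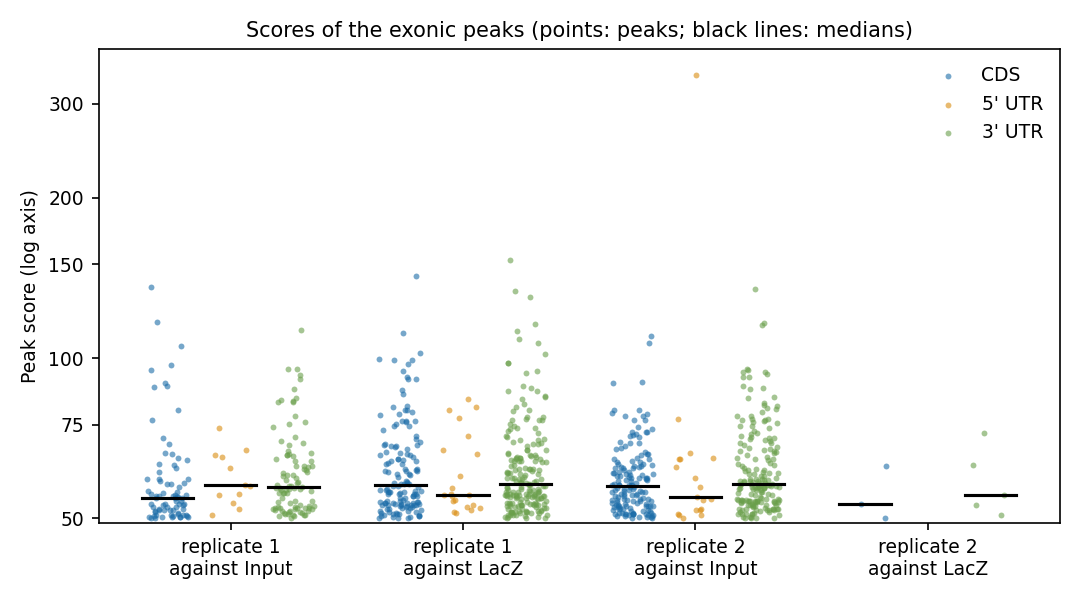
Score of every exonic peak on a log axis, by list and by the part of the gene that holds the midpoint; black lines are medians. Most peaks lie between 50 and 75, replicate 1 against LacZ has 11 peaks of at least 100, and the 5′ UTR peak of EEF1A1 at 340.1 stands apart in replicate 2 against Input.

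The exonic peaks of replicate 1 over Input are described first, and the 2 with the highest scores were in CDS. U2SURP, which encodes a protein associated with the U2 snRNP of the spliceosome, led with 136 against Input and 99.2 against LacZ at chr3:143022492-143023258, a peak that contained 4 splice boundaries. CMAS, the synthetase of CMP-sialic acid, followed with 117 against Input and 99.8 against LacZ at chr12:22062001-22062614, where 25.1% of the bases were exonic. In the 3′ UTRs, AFAP1L2, an adaptor protein linked to actin filaments, had 113 and ZBTB20, a zinc finger transcription factor, had 95.4. The leading 5′ UTR peak was that of CREBRF at 73.8. All 5 were also called against LacZ.

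In replicate 1 against LacZ, the leading exonic peaks lay at the 3′ ends of short genes. ARHGDIA had the highest score, 153, with a peak at chr17:81867215-81868347 whose midpoint was 60 bases from the annotated end of a gene of 3.66 kb. GPX4, a peroxidase that removes lipid hydroperoxides, followed with 142 in its last exon, 90 bases from the end of a gene of 2.81 kb. VIM, the intermediate filament protein vimentin, had 134 at chr10:17236989-17237812, with the midpoint in the 3′ UTR, 193 bases from the end of the gene, and 44.2% of its bases exonic. None of these 3 peaks was called against Input.

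The same place in the gene recurred further down that list. PARK7, a redox-sensitive protein, had a 3′ UTR peak of 130 and MYL9, a regulatory light chain of myosin, one of 116. GSTP1, a glutathione S-transferase, had a CDS peak of 111 at chr11:67586357-67586716, in the last exon and 120 bases from the end of a gene of 2.92 kb. SOD1, the cytosolic superoxide dismutase, reached 102 in its last coding exon and UCHL1, a ubiquitin hydrolase, 102 in its 3′ UTR. Of the 11 exonic peaks of this list with a score of at least 100, all 11 were in the last exon, 9 had the midpoint within 1 kb of the end of the gene and 9 were called against LacZ only. Over all 359 exonic peaks of the list, 63.5% were in the last exon, 24.5% within 1 kb of the end and 74.9% called against LacZ only. The 2 that were also called against Input were SRI (109 against LacZ, 91.3 against Input) and PKP2 (107 and 93.0).

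In replicate 2 against Input, 6 exonic peaks reached a score of 100, 4 of them in a last exon and 1 within 1 kb of the end of its gene, beside 56.5% and 14.6% of all 356. EEF1A1, the elongation factor that brings aminoacyl-tRNA to the ribosome, had the highest score among the exonic peaks of the list, 340.1, at chr6:73520893-73521266. This peak lay in the 5′ UTR of exon 1, 4508 bases from the nearest gene TSS but 47 bases from the start of an annotated transcript, and 71.4% of its bases were exonic. The next were 3′ UTR peaks of SERPINB8 (135), of MARCHF6, a ubiquitin ligase of the endoplasmic reticulum (116), and of SLC5A12, a sodium-coupled monocarboxylate transporter (116). The strongest CDS peaks were in DHRS12, a dehydrogenase of the short-chain family (110.0, with 12.9% of bases exonic), and TRANK1 (107).

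All 8 exonic peaks of replicate 2 against LacZ had scores between 50.0 and 72.2. They were in MARCHF6 (72.2), HSPA4, a chaperone of the HSP70 family (62.9), TRANK1 (62.6), CSNK1G1 (55.3), TOX3 (53.3), PATJ (52.9), MCPH1 (50.7) and SRPK1, a kinase of SR splicing factors (50.0). HSPA4 was the member not called against Input. The other 7 were also called against Input, for example with scores there of 116 for MARCHF6 and 89.7 for SRPK1. As the scale is not stated, the scores of the lists are not compared as sizes.

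The place of the exonic peaks within their genes was next compared between the groups by control, beside a census of the eligible exonic sequence. For the census, every 2000th eligible base was taken as the midpoint of a window of 404 bases, the median width of the exonic peaks, which gave 35972 windows. The census describes the sequence and is not a test, and the differences in place were not tested. In the LacZ-only group of replicate 1, 185 of 269 exonic peaks were in the last exon of their transcript (68.8%, 62.9 to 74.3%), beside 59.95% of the census. The share was 55.9% of 93 Input-only peaks (45.2 to 66.2%), 47.8% of 90 peaks called against both controls (37.1 to 58.6%) and 56.2% of 349 Input-only peaks of replicate 2 (50.8 to 61.4%).

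The contrast was wider among the CDS peaks alone. CDS here is CDS in any transcript, and with UTR before CDS the CDS share of replicate 1 against LacZ was 25.3% in place of 39.0%. The contrast was not recomputed in that order. Of 98 LacZ-only CDS peaks, 34 were in the last exon (34.7%, 25.4 to 45.0%), where the census gave 19.9%. The other groups had 5 of 36 Input-only (13.9%, 4.67 to 29.5%) and 3 of 42 called against both controls (7.14%, 1.498 to 19.5%) in replicate 1, and 18 of 149 Input-only (12.1%, 7.32 to 18.4%) in replicate 2. The interval of the LacZ-only peaks did not reach the census value or those of the peaks called against both controls and of replicate 2, and it overlapped that of the Input-only peaks of replicate 1. Along the CDS, the median position was 62.3% of the way to the stop codon for LacZ-only peaks and 44.6%, 46.7% and 53.0% for the other groups, beside 54.9% in the census.

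Among the 3′ UTR peaks, 64 of 155 LacZ-only peaks had the midpoint within 1 kb of the annotated end of the gene (41.3%, 33.5 to 49.5%), beside 29.7% of the census. The other groups had 26.0% (14.6 to 40.3%), 23.3% (11.8 to 38.6%) and 26.5% (20.3 to 33.6%), and their intervals overlapped that of the LacZ-only peaks. A splice boundary lay in 32 of 155 LacZ-only 3′ UTR peaks (20.6%, 14.6 to 27.9%), beside 6.58% of the census. The counts were 5 of 50 Input-only peaks (3.33 to 21.8%), 4 of 43 called against both controls (2.59 to 22.1%) and 8 of 181 Input-only peaks of replicate 2 (1.93 to 8.52%), where the last of these intervals did not reach that of the LacZ-only peaks and the others overlapped it.

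**Figure D3:**
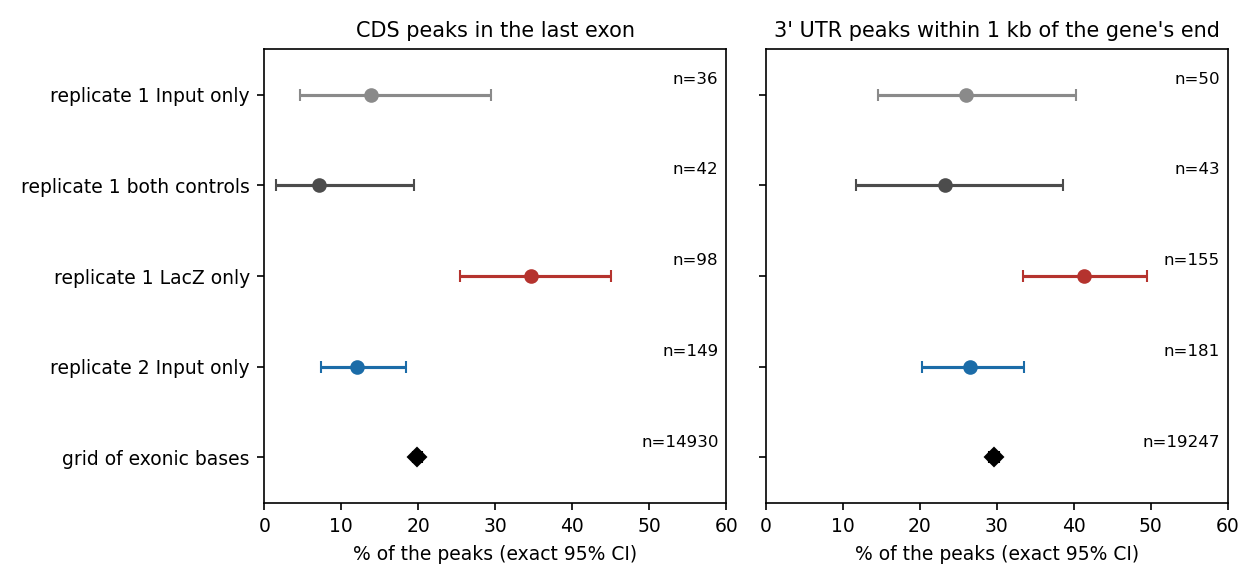
Left, share of CDS peaks in the last exon of the transcript. Right, share of 3′ UTR peaks with the midpoint within 1 kb of the end of the gene. Points are percent of the peaks of each group with exact 95% confidence intervals, and the diamond is the census of exonic bases; the LacZ-only peaks of replicate 1 have the highest value in both panels (34.7% and 41.3%).

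The genes behind the LacZ-only exonic peaks were shorter. Their median length was 38.5 kb (quartiles 13.7 and 97.2 kb), against 104 kb for Input-only peaks (50.0 and 238 kb) and 104 kb for peaks called against both controls (46.2 and 188 kb) in replicate 1 and 86.1 kb for Input-only peaks of replicate 2 (38.3 and 182 kb). The census, which weights a gene by its exonic bases, had a median of 60.5 kb. The LacZ-only peaks thus lay below the census and the other groups above it. In the same groups, 63 of 265 genes with a LacZ-only exonic peak also had a non-exonic peak of that list inside the gene (23.8%), compared with 45.2%, 41.1% and 41.2% in the others. Gene length differed between the groups as given above, and its part in this difference was not tested.

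**Figure D4:**
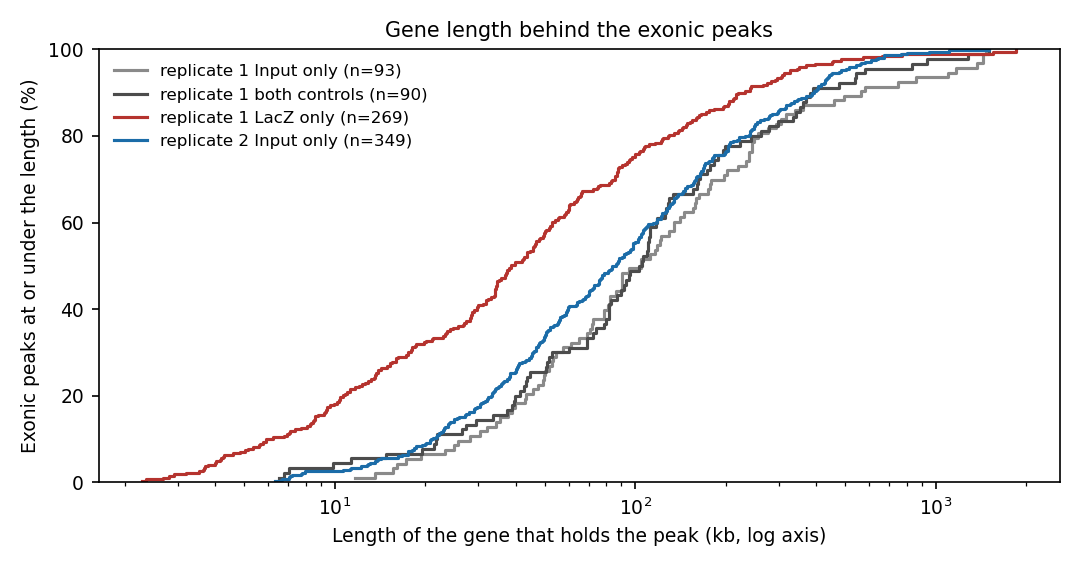
Cumulative share of exonic peaks, in percent, by the length of the gene that holds them in kb on a log axis, for the groups by control. The curve of the 269 LacZ-only peaks of replicate 1 (median 38.5 kb) lies to the left of the others (medians 104, 104 and 86.1 kb) over most of the range.

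GC content, the share of G and C bases, moved with the LacZ-only exonic peaks. Their median GC was 47.6%, beside 37.0% and 37.1% in the other groups of replicate 1 and 40.1% in Input-only peaks of replicate 2. The non-exonic LacZ-only peaks were also richer in GC, at 44.01% beside 37.8% and 38.1%. Census windows had a median of 43.8%, so the exonic peaks called against Input were poorer in GC than exonic sequence and the LacZ-only peaks richer.

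The exonic share was therefore compared within bands of GC content, a comparison added after the values were seen. In every one of the 5 bands the LacZ-only share was above those of Input-only peaks and of peaks called against both controls. Under 35% GC, 4.11% of LacZ-only peaks were exonic, beside 2.14% and 2.22% (adjusted p = 0.0389 for each in Fisher's exact test). Between 40 and 45%, the shares were 3.51%, 1.35% and 1.78% (exact test, adjusted p = 0.00453 and 0.0256). At 50% or more, they were 9.70%, 2.74% and 3.73% (exact test, adjusted p = 0.0712 and 0.0389). The comparison with peaks called against both controls passed the threshold in all 5 bands, and that with Input-only peaks in 2 of 5.

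**Figure D5:**
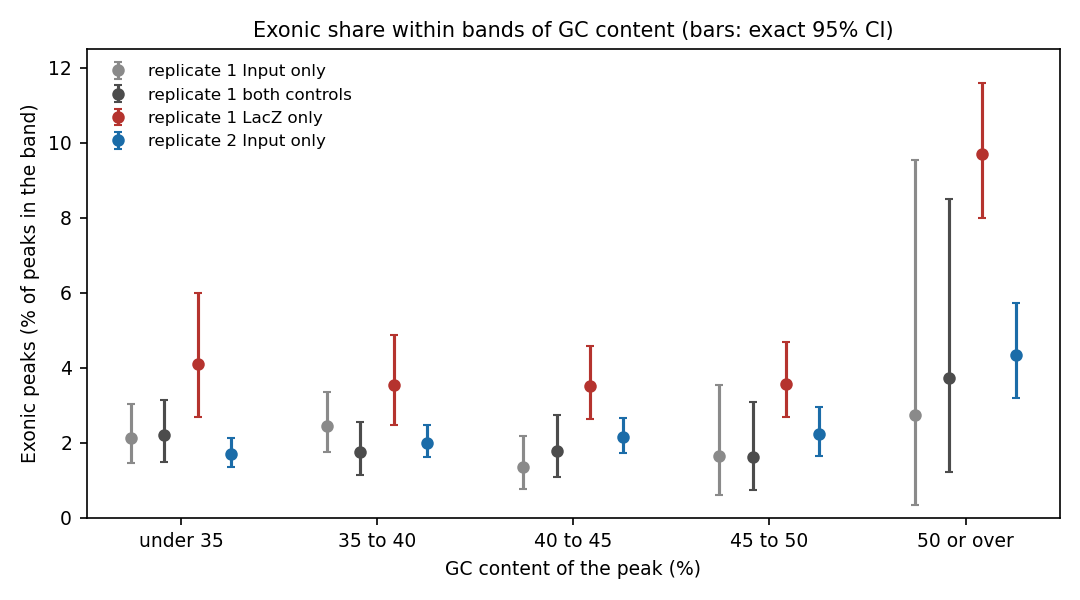
Percent of peaks that are exonic within 5 bands of GC content, by group, with exact 95% confidence intervals. The LacZ-only peaks of replicate 1 are the highest point in each band, from 3.51% at 40 to 45% to 9.70% at 50% or more.

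The share also differed between score bands within the LacZ-only group, without a steady rise. It was 3.93% (3.21 to 4.75%) of peaks with a score under 55 and 6.48% (4.71 to 8.66%) of those with 70 or more. Between these it was 5.68% at 55 to 60 and 4.86% at 60 to 70. Peaks called against both controls went from 1.51% (0.960 to 2.26%) to 2.76% (1.81 to 4.01%), and Input-only peaks of replicate 1 from 2.15% (1.62 to 2.79%) to 0.512% (0.0620 to 1.83%). That last share rests on 2 exonic peaks of 391, and the bands between stood at 2.35% and 1.90%. Input-only peaks of replicate 2 stood at 2.21% and 2.28%. The intervals at the low and high ends overlap in each group, and the trends were not tested.

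Exonic sequence nearer than 2 kb to a TSS was left out by the rule and was counted separately. In replicate 1, the midpoint lay in CDS or UTR there for a further 67 of all 5594 LacZ-only peaks. The counts were 2 of 4611 Input-only peaks and 4 of 4640 called against both controls, and 25 of 16296 Input-only peaks in replicate 2. Some members lie within 2 kb of the start of some annotated transcript, if not of a gene TSS. These were 93 of 269, 23 of 93, 21 of 90 and 74 of 349 in that order of LacZ-only, Input-only, both controls and replicate 2. The shares of the exonic sequence at these distances were not counted, so neither set of counts is compared with the sequence.

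By chromosome, the exonic peaks of replicate 1 against Input were absent from chromosomes 19 and 22, which hold 5.70% and 2.02% of the eligible exonic sequence. All peaks of that list were also rare there, with 0.681% and 0.465% of the list. The LacZ-only peaks had 18 members on chromosome 19 and 5 on chromosome 22, or 4.39 and 3.44 per Mb of exonic sequence. The highest rate of LacZ-only members per Mb was on chromosome 21 (6.70, from 5 peaks) and the next on chromosome 15 (6.39, from 18 peaks).

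Several regions in the same gene were found for 36 of the 787 genes with an exonic peak. PLCXD3 had 4, in 7.53 kb of exonic sequence: in its 3′ UTR with scores of 61.5 and 56.9 when replicate 2 was set against Input and 55.5 when replicate 1 was set against LacZ, and in its CDS with 59.6 (replicate 2, Input). The other 35 had 2 each. MARCHF6 held its strong 3′ UTR peak of replicate 2 and another of 60.7 in replicate 1 against LacZ, downstream of it. EP300, a histone acetyltransferase, had 2 LacZ-only peaks of replicate 1 in its last exon, with 87.1 in the CDS and 57.8 in the 3′ UTR. NCKAP1L, a subunit of the actin-regulating WAVE complex in blood cells, had a CDS peak called against both controls (51.3 and 85.5) and a LacZ-only 3′ UTR peak (65.0). SLC5A12, SRPK1, MCPH1 and RPH3A completed the 8 genes ranked highest.

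Gene families were counted over the 807 regions beside their share of the eligible exonic sequence. Zinc finger genes held 24 regions, 2.97% of all, and 3.76% of the sequence. Solute carriers held 10 (1.24% beside 2.04%) and olfactory receptors 7 (0.867% beside 0.930%). Collagens, axonemal dyneins and ribosomal protein genes held 3, 2 and 3 regions, beside 0.390%, 0.255% and 0.185% of the sequence. Keratins and histones held 1 each, and protocadherins and mucins none of the regions, with 0.371% and 0.279% of the sequence. With so few regions in a family, no family stood clearly apart from its share.

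The genes on which the study's text dwells were looked up next. None of the 6 genes described as bound by CRLM1 (SMAD2, MAPK9, GSK3B, GALNT5, GALNT13 and GALNT18) had an exonic peak in any list. Of 18 genes reported or tested as regulated by CRLM1, which include FOS, SNAI1, ZEB1, CDH1 and VIM, only VIM had one, the LacZ-only 3′ UTR peak of replicate 1 described above, and 1 of the 18 had no eligible exonic sequence in which a peak could be counted. None of 5 genes linked to the partner protein hnRNPK, namely BBC3, SMAD6, BMP7, SMURF2 and HNRNPK, had one. Over all 17925 gene symbols with eligible exons, 787 had an exonic peak in some list (4.39%), so lists of this size are too short to stand apart from that share. Peaks outside exons in these genes are not part of these counts. The study counted a gene as bound when a CRLM1 peak free of LacZ overlap lay in the gene body or the 5 kb upstream. Its measure and peak set therefore differ from those used here.

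The sequence of the exonic peaks was compared with that of the probes, since a probe could pull down DNA that it matches. The longest run of letters shared exactly with any of the 9 CRLM1 probes, on either strand, had a median of 9 bases in the 809 exonic peaks and of 9 in the 30693 other peaks. Runs of 15 or more bases were in 1 exonic peak and in 19 others. The 1 exonic peak was a CDS peak of NOS2, the inducible nitric oxide synthase, whose run with probe CRLM1-5 was:
NOS2, chr17:27773145-27773159, plus strand of the genome: TGCCACTGCCACTCA
All letters of this run are shared with the probe, and it lies outside the exon that holds the midpoint of the peak. For the 21 LacZ probes the median was also 9 bases, with no run of 15 or more in an exonic peak and 9 in other peaks. A near-identical copy elsewhere in the genome was one over at least 80% of the length at 90% identity. Such a copy was found for 0 of the 183, 359, 356 and 8 exonic peaks of the lists. The exact intervals of these counts reach up to 1.996%, 1.02%, 1.03% and 36.9%. Among other peaks the shares were between 0.326% and 0.567%, and Fisher's exact test gave adjusted p = 1 in each list.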

How the data were processed

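ChIRP-seq of CRLM1_IP, LacZ and Input was analysed in HCT116 cells with 2 replicates per group. Per the study's methods and the submitters' processing notes, reads were trimmed with cutadapt and aligned to GRCh38 with Bowtie2, and peaks were called with MACS. By its label, each list used here compares CRLM1_IP of a replicate with Input or LacZ of the same number. The study's methods describe calls of CRLM1_IP and LacZ against Input with a q-value cutoff. CRLM1 peaks that overlapped LacZ peaks were then left out, and no call of CRLM1_IP against LacZ is described. The deposited lists give the position and the score of each peak, a value the authors took from the peak caller. The methods name MACS2, whereas the peak names and the lowest score of 50 are those of an older release, so the version, the threshold and the scale of the score were not settled. The lists hold no read counts, and the depth of the libraries is unknown. All value columns of the lists were used.

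Positions are 1-based on GRCh38 and genes are from GENCODE release 44. CDS took precedence over 5′ UTR and that over 3′ UTR. Exon numbers refer to the Ensembl canonical transcript where it holds the midpoint in the class given to the peak, otherwise to the longest transcript that does. Shares carry Clopper-Pearson 95% intervals. Fisher's exact test (scipy 1.17.1, two-sided) was used with Benjamini-Hochberg adjustment over 18 tests, and over 10 tests for the GC bands. Copies were searched with blastn 2.17.0 at a word size of 40, which can miss a copy with dense mismatches. Probe sequences came from the study's supplement, which prints 59 letters per CRLM1 probe but states a length of 63, so 4 letters of each may be missing from the search for shared runs. Classes were tested on bases sampled from the annotation and the chromosomes, overlaps on a small constructed set of peaks and Fisher's exact test on simulated counts.

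The members and lists were chosen with earlier results of these data known. Named are regions exonic in both replicates, per list the 2 highest scores in CDS, 2 in 3′ UTRs and 1 in 5′ UTRs, up to 8 genes with several regions, genes of the study's lists and 10 families counted by symbol. PARK7, MYL9, SOD1, UCHL1, SRI, PKP2, the 4 regions exonic in 1 replicate, the genes shared by the lists against Input and NOS2 were named after their values were seen. 1 shared gene is not reported here. Alternatives covered score thresholds, TSS distances of 1 and 5 kb, transcript sets, the use of any part of a peak, chromosomes X and Y, overlap and copy rules.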

Additional observations from a re-analysis of the deposited data

How the results depend on the processing

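The higher exonic share of LacZ-only peaks in replicate 1 kept its direction and passed the threshold under the 8 other settings listed for it. These were score filters, TSS distances, transcript sets, any part of a peak, and chromosomes X and Y. Differences from Input-only peaks were 1.63 to 4.19 percentage points (Fisher's exact test, highest adjusted p = 5.58e-06). From peaks called against both controls they were 1.66 to 4.41 points (Fisher's exact test, highest adjusted p = 0.00848). With the score filters, the groups by control were formed again from the peaks that remained. LacZ-only peaks then include those whose call against Input fell under the filter. Within GC bands, chosen after seeing the data, the difference by the exact test from Input-only peaks was 1.08 points (adjusted p = 0.116) at 35 to 40% GC, 1.94 (adjusted p = 0.0730) at 45 to 50% and 6.96 (adjusted p = 0.0712) at 50 to 100%, where those groups hold fewer peaks. When any part of a peak in an exon sufficed, replicate 1 against Input had a lower exonic share than replicate 2 against Input, by -0.911 points (exact test, adjusted p = 0.00301). The other tests stayed on their side of the threshold, and 256 of 298 recomputed values were labelled the same. For a test, this label required only the same side of the threshold, with the direction kept where it had passed. For a count it allowed a limited fold change, and for a share or ratio any value inside the main interval. Sizes could still move: the score difference of replicate 2 against LacZ went from 10.02 to -13.49 points with the list median in place of 60.

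Numbers followed the filter. With scores at or above the list median, exonic peaks numbered 92, 177, 180 and 3 in the order of replicate 1 against Input and LacZ and replicate 2 against Input and LacZ, and with scores of at least 60 they numbered 64, 155, 140 and 3. Regions then numbered 405 and 320, peaks called against both controls 44 and 39 in replicate 1 and 2 and 2 in replicate 2, and replicate 1 peaks found in replicate 2 against Input 1 and 1. With any part of a peak in an exon, the lists had 345, 617, 772 and 21, regions numbered 1560, peaks called against both controls 168 and 19, and 6 were found in replicate 2. With the TSS of every transcript, replicate 2 against LacZ had 5, of which 4 were called against both controls. Without replicate 1 or 2, regions numbered 357 and 452.

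The CDS share moved with precedence and filter. In replicate 1 against Input it was 32.6% and 31.2% with the 2 score filters, 70.1% with any part of a peak and 30.6% with UTR before CDS. In replicate 1 against LacZ the last 2 gave 68.9% and 25.3%, in replicate 2 against Input 72.0% and 27.8% (36.9% with the TSS of every transcript), and in replicate 2 against LacZ any part of a peak gave 76.2%. No paired analysis was possible because each list was called within 1 replicate number and holds no value per library. Unknown depth and the small list of replicate 2 against LacZ limit what absence of a peak shows.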

Other observations

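On chromosomes X and Y, outside the members counted above, the same rule found 1 exonic peak among 80 peaks in replicate 1 against Input, 2 of 76 in replicate 1 against LacZ, 2 of 139 in replicate 2 against Input and 0 of 2 in replicate 2 against LacZ.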
